A study of Rattus norvegicus with 10 samples.

Results

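Genes of the major histocompatibility complex (MHC), which in the rat is called RT1, were followed in round spermatids of young and aged rats. The members are the rows of the deposited tables whose gene name begins with RT1-, together with B2m, Cd74, Tap1, Tap2, Tapbp, Ciita and Nlrc5. There were 52 such rows of the 32545 genes in the tables, under 51 names, since Tap2 is listed at 2 positions. The cells were primary round spermatids, haploid germ cells formed by meiosis, from wild-type Brown Norway rats aged 4 to 6 months (young, 5 libraries) or 18 to 20 months (aged, 5 libraries). They were separated from a testis cell suspension by sedimentation (STA-PUT), a method that enriches a cell type without sorting on a marker, and their RNA was made into SMARTer libraries. The labels do not say whether each library came from its own rat or from pooled rats, so the tests measure the spread between these libraries, which may be technical.

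MHC class I molecules show peptides from inside the cell to T cells and pair a heavy chain, encoded in the MHC, with the light chain beta-2 microglobulin (B2m). The TAP transporter, made of Tap1 and Tap2, and tapasin (Tapbp) load those peptides. MHC class II molecules pair an alpha with a beta chain, carry the invariant chain Cd74 until peptide is bound, and are typical of macrophages, dendritic cells and B cells. Nlrc5 and Ciita are the main transcriptional activators of class I and class II genes. Germ cells past the blood-testis barrier are known for little class I at their surface, while the space between the tubules holds macrophages.

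Class I transcripts were present in every library, class II transcripts were low apart from 1 chain, and no member differed between the ages past the threshold. The light chain gene B2m and the heavy chain gene RT1-A2 had higher means in aged libraries, 8.37 and 2.58 times the young means, with no overlap between the groups. Among all genes tested, 1.36% were higher in aged libraries without overlap and 1.24% were lower without overlap. RT1-A1, the most abundant member, was 1.35 times as high, and the class II beta chain gene RT1-Bb stood at nearly the same level in all libraries. Aged replicates 1 and 2 carried much of the excess. Without them B2m was 2.76 and RT1-A2 1.71 times the young mean.

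Of the 52 rows, 14 had a mean of at least 1 FPKM over the 10 libraries and entered the test, and 6 were listed at 0 in every library. FPKM is the number of sequenced fragments scaled by gene length and library depth, so levels of different genes can be compared. The test was limma on log2(FPKM + 1), with p-values adjusted by Benjamini-Hochberg over all 12985 genes tested and a threshold of 0.05. A log2 difference is always aged minus young, and on that scale unless it comes from an alternative setting with another scale. By limma, 0 of the 14 tested members passed, as did 0.0% of all genes tested (0 of 12985). The limma method voom, which weights log-scaled fragment counts by the variance expected at their level, also called 0 members. At an unadjusted p under 0.05 there were 5 members by limma, all higher in aged libraries, and 5 by voom, where the same threshold held 11.9% of all genes tested by limma (5.54% in that direction) and 11.8% by voom. Of the tested members 11 had a fitted difference above 0, against 45.5% of all genes tested. Their median log2 difference was 0.31, and that of all genes tested was -0.02. Without aged replicates 1 and 2 the median of the members was 0.09 and that of all genes -0.00196, and 3 members had an unadjusted p under 0.05 (7.49% of all genes). Of these 14, RT1-S3 and RT1-Ba had young means below 1 FPKM and entered the test only through the aged libraries, so their direction was fixed by the filter. Both are among the 11 above and raise the median of 0.31, and the 14 do not stand for all 52.

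Libraries held 14488222 to 18203223 recovered fragments, and 1 FPKM over 1 kilobase stood for 14.6 to 18.6 fragments. The labelled cell type was checked against 9 round spermatid genes, among them Acrv1, Tnp1 and Prm1, which summed to 19913 to 31947 FPKM in young and 19908 to 26366 FPKM in aged libraries. Markers of other testis cells were also present, and the peritubular and Leydig sums did not overlap between the ages, while the other sums did. No sum was tested. The test held 7 of 7 listed peritubular, 3 of 7 Leydig, 12 of 15 macrophage, 4 of 9 Sertoli and 2 of 7 endothelial markers. Untested markers are left out of the counts that follow. So are tested markers with a young mean below 1 FPKM, which entered the test only through the aged libraries. Of the peritubular markers, contractile genes of the tubule wall, 6 of 6 had a higher aged mean, and the list summed to 57.8 to 87.2 FPKM in young and 93.9 to 242 FPKM in aged libraries. The Leydig cell list, genes of testosterone-making cells, had 2 of 2 higher and summed to 5.13 to 8.28 and 10.8 to 120 FPKM. The macrophage list had 3 higher and 2 lower, with 7 left out, and sums of 149 to 201 and 161 to 264 FPKM, of which Aif1 alone gave 128 to 169 FPKM in young libraries. Without Aif1 the macrophage sums were 21.2 to 32.5 FPKM in young libraries, 54.7 and 122 FPKM in aged replicates 1 and 2, and 26.6 to 26.7 FPKM in the other aged libraries. Sertoli cell markers were higher in 3 of 3 and summed to 18.8 to 24.1 and 19.1 to 92.3 FPKM. Endothelial markers were higher in 0 of 1 (Tek), with sums of 2.03 to 3.03 and 3.01 to 5.40 FPKM. The endothelial marker left out, Vwf, ranged from 0.791 to 0.910 FPKM in young and from 1.28 to 2.18 FPKM in aged libraries. Dendritic cell sums were 3.30 to 5.07 and 4.26 to 5.21 FPKM, and lymphocyte sums 7.04 to 8.65 and 5.58 to 8.33 FPKM. No marker passed the test, and of these lists only the endothelial one held a gene listed at 0 in every library (Cldn5). Aged replicate 2 had the highest peritubular, Leydig, macrophage, Sertoli and endothelial sums, and aged replicate 1 the next highest. The part of these cells in any result below was not tested, and in such bulk RNA a change in the number of cells of a type cannot be told apart from a change of RNA per cell.

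B2m (ENSRNOG00000017123, chromosome 3, 114087287 to 114093309, plus strand, in the coordinates of the files, which name no build) encodes the light chain that all classical class I heavy chains need to reach the surface. It measured 2.43, 1.34, 2.77, 2.16 and 4.75 FPKM in the young libraries and 24.7, 65.6, 6.60, 6.68 and 9.01 FPKM in the aged ones, replicates 1 to 5. Every aged library was above every young one, as was the case for 1.36% of all genes tested, and aged replicate 2 was far above the rest. The means were 2.69 ± 1.27 and 22.5 ± 25.2 FPKM (SD, n = 5). The log2 difference of 2.17 (SE 0.55, limma adjusted p = 0.319) ranked 2 of the 12985 genes tested when ordered from highest to lowest in aged libraries and 70 by p, and did not pass the threshold. These values rested on 43 to 134 fragments per young and 205 to 1965 per aged library. Without aged replicates 1 and 2 the aged mean was 7.43 ± 1.37 FPKM (SD, n = 3), the log2 difference 1.24 (SE 0.25), and the groups still did not overlap. In aged replicates 3, 4 and 5 the Leydig cell sum (10.8, 14.8 and 16.8 FPKM) and the peritubular sum (93.9, 113 and 112 FPKM) were likewise above all young libraries. The macrophage sum (173, 161 and 184 FPKM) lay within the young range, as it did without Aif1, but its markers went both ways. The sum was led by Aif1, Adgre1, Mrc1 and Cx3cr1, with young means of 143, 7.16, 6.31 and 5.69 FPKM. In aged replicates 3 to 5 these averaged 1.02, 0.781, 0.994 and 0.824 times the young mean, and Lyz2 0.899 times. Of the other tested markers, C1qb averaged 2.73, Fcer1g 2.31, C1qa 1.95, Tyrobp 1.85, C1qc 1.75, Cd163 1.52 and Csf1r 1.41 times. All 7 had young means below 1 FPKM and entered the test only through the aged libraries. The part of any of these cells in the B2m values was not tested.

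**Figure D1:**
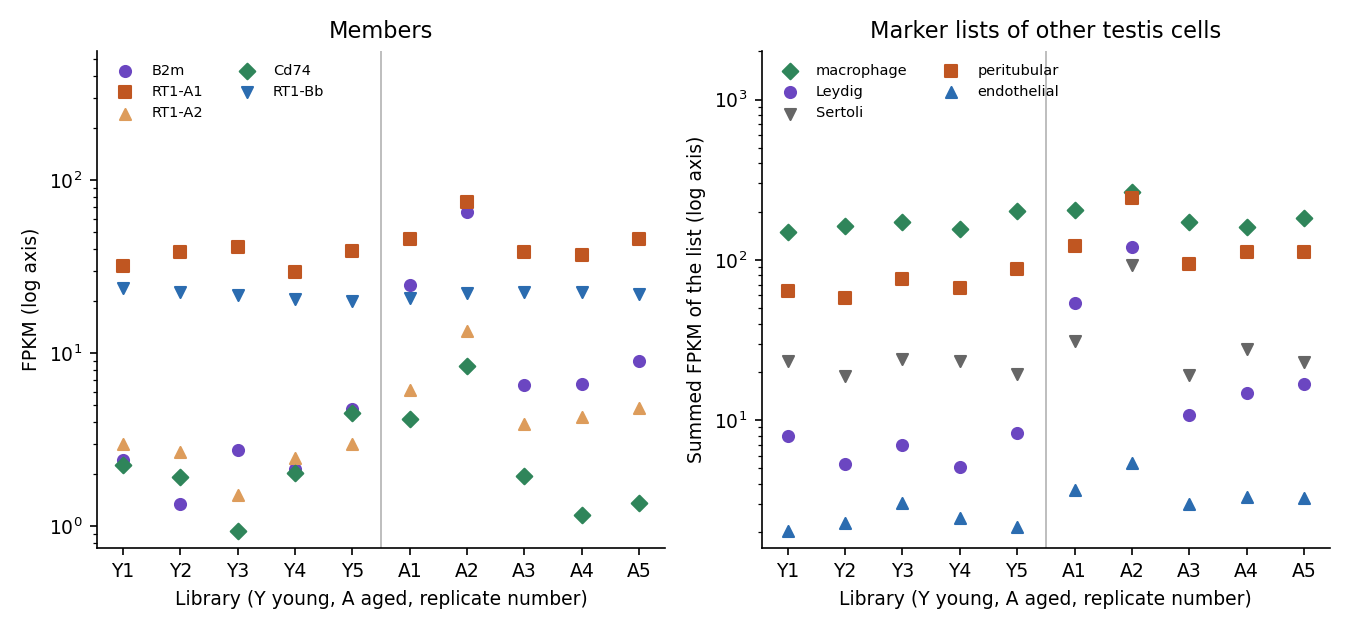
Left, FPKM of 5 members in each library; right, summed FPKM of the marker lists of 5 other testis cell types in the same libraries, both on log axes, with young libraries Y1 to Y5 left of the line and aged libraries A1 to A5 right of it. B2m, RT1-A2 and the Leydig cell and peritubular sums are highest in A2 and then A1, while RT1-Bb stays between 20.2 and 23.7 FPKM.

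RT1-A1 (ENSRNOG00000038999, chromosome 20, 5351605 to 5421098, plus strand), a classical class I heavy chain gene, was the most abundant member. It measured 31.8, 38.4, 41.0, 29.6 and 39.0 FPKM in the young libraries and 46.1, 75.2, 38.7, 37.2 and 46.1 FPKM in the aged ones, replicates 1 to 5. Aged replicates 1, 2 and 5 lay above all young libraries and the other aged libraries within their range. Means were 35.9 ± 4.95 and 48.6 ± 15.4 FPKM (SD, n = 5), a log2 difference of 0.39 (SE 0.17, limma adjusted p = 0.413). Aged replicate 2 decided much of it: the log2 difference was 0.22 without that library and 0.18 without aged replicates 1 and 2. RT1-A1 stood above B2m in every library, and B2m divided by RT1-A1 gave 0.0349 to 0.122 in young and 0.171 to 0.873 in aged libraries, and 0.171 to 0.195 in aged replicates 3 to 5.

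RT1-A2 (ENSRNOG00000030712, chromosome 20, 5374985 to 5378539, plus strand) is a second classical heavy chain gene whose position lies inside that of RT1-A1 on the same strand. It measured 2.98, 2.69, 1.52, 2.47 and 2.99 FPKM in the young libraries and 6.12, 13.5, 3.90, 4.27 and 4.82 FPKM in the aged ones, replicates 1 to 5. The groups did not overlap, as was the case in this direction for 1.36% of all genes tested, and aged replicate 2 again stood far above the rest. The log2 difference was 0.99 (SE 0.27, limma adjusted p = 0.319), and 0.61 (SE 0.16) without aged replicates 1 and 2. RT1-CE16, a class I gene of the CE region, measured 2.56, 2.09, 3.08, 1.67 and 3.09 FPKM in the young libraries and 6.38, 11.5, 2.65, 4.70 and 5.25 FPKM in the aged ones, replicates 1 to 5. Here aged replicate 3 lay inside the young range and the other aged libraries were above it. The log2 difference was 0.92 (SE 0.27, limma adjusted p = 0.319), and 0.55 (SE 0.20) without aged replicates 1 and 2.

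RT1-A3, whose position overlaps that of RT1-CE16 on the same strand, gave another picture. It measured 3.35, 3.39, 3.60, 3.29 and 2.64 FPKM in the young libraries and 3.48, 3.57, 2.52, 3.84 and 3.84 FPKM in the aged ones, replicates 1 to 5. The groups overlapped, aged replicate 2 was not the highest, and the log2 difference was 0.06 (SE 0.10). Of the 11 rows of the A and CE regions, these were the 4 tested. The other 7 had means of 0.0101 to 0.860 FPKM. Among them RT1-CE10 had a young mean of 0.362 ± 0.144 and an aged mean of 1.04 ± 0.911 FPKM (SD, n = 5), with 2.64 FPKM in aged replicate 2, while RT1-CE3 averaged 0.859 ± 0.197 and 0.860 ± 0.260 FPKM. Class I genes are near copies of each other, so fragments that match several of them may have been dropped or given to the wrong gene, and RT1-A1 and RT1-A2, or RT1-CE16 and RT1-A3, cannot be separated with certainty.

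The 250 bases upstream of the RefSeq start (build GRCr8) are shown for the light chain and the 3 heavy chain genes with the largest differences among the 4 tested in the A and CE regions. These 4 genes were highest in aged replicate 2, as were 9 of the 14 tested members and 12.2% of all genes tested. Capitals mark matches, on either strand, to the 5 motifs searched: GGGATTCCC, the core of the kappaB site of class I promoters, GGACTTTCC, a kappaB core of another form, AGTTTCNNT and GAAANNGAA, forms of the interferon-response element, and GATTGG, the inverted CCAAT box. AGTTTCNNT and GAAANNGAA share letters on opposite strands and could overlap. Starts are those of the RefSeq promoter table, and other transcripts of a gene can begin inside its window. The windows are chr20:4906959-4907208, plus strand for RT1-A1, chr20:4872621-4872870, plus strand for RT1-A2, chr20:3265444-3265693, minus strand for RT1-CE16, and chr3:129549080-129549329, plus strand for B2m.
RT1-A1: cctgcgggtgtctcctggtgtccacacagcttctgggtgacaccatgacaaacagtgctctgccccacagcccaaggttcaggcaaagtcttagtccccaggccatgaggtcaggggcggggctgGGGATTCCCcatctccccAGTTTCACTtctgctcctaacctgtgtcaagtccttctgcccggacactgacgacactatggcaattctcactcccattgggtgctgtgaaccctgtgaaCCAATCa
RT1-A2: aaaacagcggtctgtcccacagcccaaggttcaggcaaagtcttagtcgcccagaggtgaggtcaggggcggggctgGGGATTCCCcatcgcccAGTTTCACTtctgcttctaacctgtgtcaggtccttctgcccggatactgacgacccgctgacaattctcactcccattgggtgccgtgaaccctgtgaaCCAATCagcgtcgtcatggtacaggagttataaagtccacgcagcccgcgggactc
RT1-CE16: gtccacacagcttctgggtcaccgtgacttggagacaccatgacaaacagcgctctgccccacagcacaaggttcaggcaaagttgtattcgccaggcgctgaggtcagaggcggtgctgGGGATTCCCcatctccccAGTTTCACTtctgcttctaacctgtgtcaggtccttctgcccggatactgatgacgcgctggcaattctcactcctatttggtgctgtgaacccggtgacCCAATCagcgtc
B2m: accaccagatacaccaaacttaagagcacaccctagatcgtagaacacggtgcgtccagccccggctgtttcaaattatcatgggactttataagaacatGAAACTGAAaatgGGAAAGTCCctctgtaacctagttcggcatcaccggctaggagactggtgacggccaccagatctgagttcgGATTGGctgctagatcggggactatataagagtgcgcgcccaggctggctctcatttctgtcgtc

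Promoter windows were found for 40 of the 51 member names and for all 14 tested ones. GGGATTCCC occurred in the windows of RT1-A1, RT1-A2, RT1-A3, RT1-CE4, RT1-CE10 and RT1-CE16, 6 of the 91 among 33469 windows that hold it (0.272%). RT1-A3, with a log2 difference of 0.06, thus held the same letters as RT1-A1, RT1-A2 and RT1-CE16. AGTTTCNNT occurred in 11 member windows and in 4.2% of all windows, starting at -107 in RT1-A1, -156 in RT1-A2 and -112 in RT1-CE16 from the annotated start. B2m held neither of these but GGACTTTCC at -137 (2 member windows, B2m and Tap1, and 0.266% of all) and GAAANNGAA at -150, a motif found in 7 member windows and 8.12% of all. GATTGG was in 22 member windows, these 4 included, and in 13.3% of all. A match is a description of letters and does not show that a factor binds there.

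**Figure D2:**
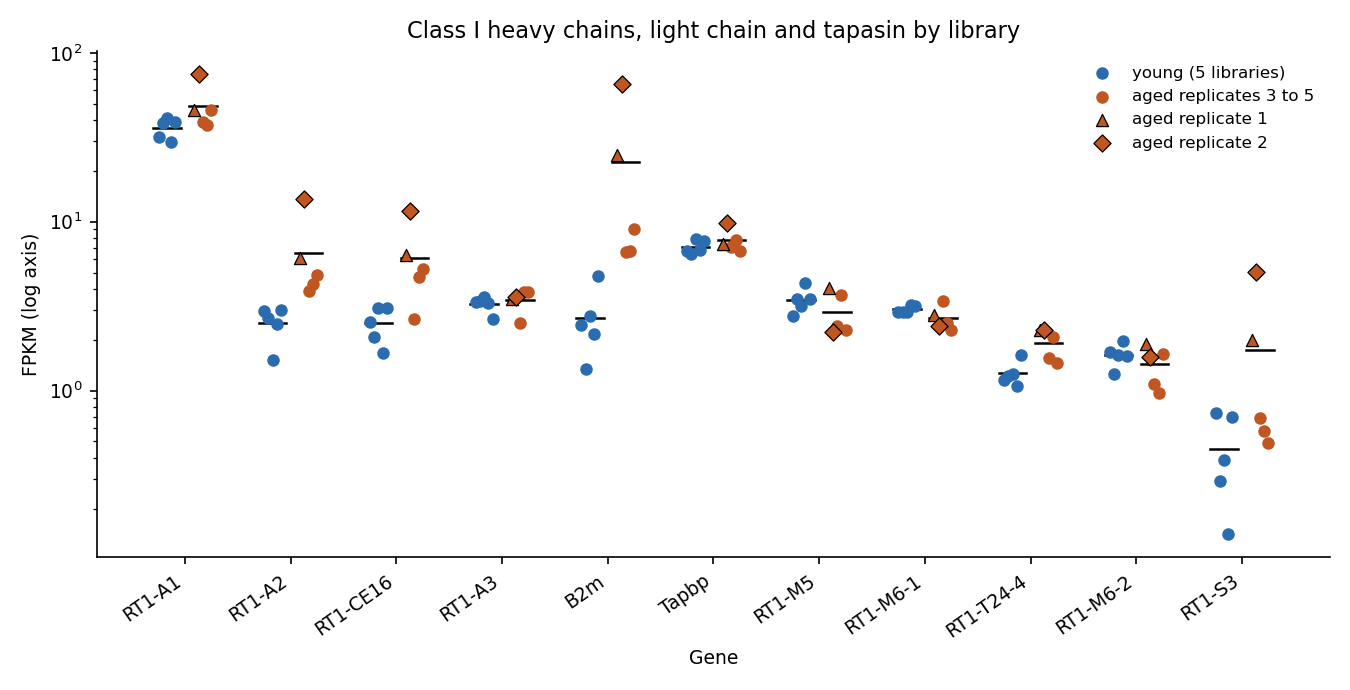
FPKM (log axis) of class I heavy chain genes, B2m and Tapbp in 5 young (blue) and 5 aged (orange) libraries, with bars at the group means. The aged libraries lie above all young ones for B2m and RT1-A2, with aged replicate 2 (diamond) and aged replicate 1 (triangle) on top, while RT1-A3, RT1-M5 and the RT1-M6 genes overlap between the ages.

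Class I genes of the M, N, O, P, S and T regions, which encode mostly non-classical heavy chains or are pseudogenes, filled 23 rows, of which 5 were tested and 3 were listed at 0 throughout. RT1-M5 measured 2.76, 3.49, 3.19, 4.31 and 3.50 FPKM in the young libraries and 4.06, 2.21, 2.42, 3.66 and 2.29 FPKM in the aged ones, replicates 1 to 5. RT1-M6-1 measured 2.93, 2.93, 2.93, 3.22 and 3.15 FPKM in the young libraries and 2.82, 2.41, 3.38, 2.52 and 2.30 FPKM in the aged ones, replicates 1 to 5. Both had lower aged means with overlapping groups, and aged replicate 2 was the lowest aged library for RT1-M5 and near the lowest for RT1-M6-1. Their log2 differences were -0.20 (SE 0.15) and -0.14 (SE 0.09), and that of RT1-M6-2 was -0.12 (SE 0.13). The RT1-M6 genes overlap each other and, on the opposite strand, Znrd1as1, which averaged 29.9 FPKM, so without a stated strand setting their reads are uncertain.

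RT1-T24-4 and RT1-S3 had higher means in aged libraries. RT1-T24-4 ranged from 1.07 to 1.62 FPKM in young and from 1.46 to 2.27 FPKM in aged libraries, a log2 difference of 0.36 (SE 0.11, limma adjusted p = 0.319), and 0.25 (SE 0.12) without aged replicates 1 and 2. RT1-S3 ranged from 0.142 to 0.737 FPKM in young libraries and stood at 1.98 and 5.01 FPKM in aged replicates 1 and 2 with the remaining aged replicates between 0.487 and 0.685 FPKM. It reached the filter only through those libraries, and its log2 difference of 0.71 (SE 0.35) was 0.14 (SE 0.16) without them. The untested rows of these regions had means of at most 0.503 FPKM and at most 0.757 FPKM in any library.

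Peptide loading genes were uneven. Tapbp, tapasin, measured 6.67, 6.47, 7.93, 6.76 and 7.71 FPKM in the young libraries and 7.34, 9.87, 7.12, 7.81 and 6.72 FPKM in the aged ones, replicates 1 to 5. Only aged replicate 2 left the young range, and the log2 difference was 0.11 (SE 0.10, limma adjusted p = 0.640). Tap1 measured 0.10, 0.0687, 0.149, 0.121 and 0.141 FPKM in the young libraries and 0.430, 0.914, 0.0976, 0.216 and 0.148 FPKM in the aged ones, replicates 1 to 5, on 5 to 62 fragments a library, with aged replicates 1 and 2 on top. The Tap2 row at 5198258 to 5212624 on chromosome 20 held 0.0431, 0, 0, 0.0455 and 0 FPKM in the young libraries and 0.0783, 0.0222, 0.0419, 0.0216 and 0 FPKM in the aged ones, replicates 1 to 5. The row at 3995544 to 4009587 held 0.0244, 0, 0, 0.0774 and 0 FPKM and 0, 0, 0, 0.0491 and 0 FPKM in the same order. Neither Tap2 row exceeded 4 fragments in a library. Fragments that match both copies may have been dropped, so these values do not show how much Tap2 RNA there was.

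Class II genes filled 10 rows, of which 2 were tested and 3 (RT1-Ha, RT1-DOb and RT1-Db2) were listed at 0 in all libraries. RT1-Bb (ENSRNOG00000032708, chromosome 20, 4039413 to 4049711, plus strand), the beta chain of the molecule that corresponds to human DQ, had by far the highest level of them. It measured 23.7, 22.6, 21.8, 20.7 and 20.2 FPKM in the young libraries and 20.9, 22.3, 22.5, 22.7 and 22.1 FPKM in the aged ones, replicates 1 to 5. The groups overlapped fully, and aged replicates 1 and 2 lay among the others. Means were 21.8 ± 1.43 and 22.1 ± 0.679 FPKM (SD, n = 5), a log2 difference of 0.02 (SE 0.05, limma adjusted p = 0.886). No other gene of the tables overlaps its position. The files give it a gene length of 4048 bases, against 1361 bases for RT1-Ba, and where along that length its fragments lay was not analysed here.

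RT1-Ba, the alpha chain that pairs with it, did not share this level. It measured 0.566, 0.292, 0.704, 0.873 and 1.90 FPKM in the young libraries and 1.23, 3.76, 1.27, 1.01 and 0.767 FPKM in the aged ones, replicates 1 to 5. RT1-Bb was 10.6 to 77.5 times RT1-Ba in young and 5.92 to 28.8 times in aged libraries. The highest RT1-Ba values were in aged replicate 2 and young replicate 5, and its log2 difference was 0.44 (SE 0.28, limma adjusted p = 0.517), or 0.16 (SE 0.23) without aged replicates 1 and 2.

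The chains that correspond to human DR showed the same high libraries. The alpha chain gene RT1-Da measured 0.402, 0.250, 0.356, 0.300 and 1.27 FPKM in the young libraries and 0.71, 1.19, 0.484, 0.452 and 0.393 FPKM in the aged ones, replicates 1 to 5. The beta chain gene RT1-Db1 measured 0.408, 0.125, 0.279, 0.274 and 0.548 FPKM in the young libraries and 0.489, 0.860, 0.325, 0.298 and 0.231 FPKM in the aged ones, replicates 1 to 5. Young replicate 5 was the highest young library for RT1-Ba, RT1-Da and RT1-Db1 and aged replicate 2 the highest aged one, and the groups overlapped for each.

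Cd74 (ENSRNOG00000018735, chromosome 18, 56071478 to 56080849, plus strand), the invariant chain, shared its highest libraries with these chains and not with RT1-Bb. It measured 2.26, 1.92, 0.935, 2.02 and 4.52 FPKM in the young libraries and 4.18, 8.51, 1.95, 1.16 and 1.37 FPKM in the aged ones, replicates 1 to 5. Aged replicate 2, young replicate 5 and aged replicate 1 were the highest, and aged replicates 3 to 5 lay within the young range. The match with the chains was limited to high libraries. Cd74 was lowest in young replicate 3, whereas RT1-Ba, RT1-Da and RT1-Db1 were lowest in young replicate 2. The log2 difference was 0.25 (SE 0.40, limma adjusted p = 0.799), and it turned to -0.08 without aged replicate 2 and -0.35 without aged replicates 1 and 2. The macrophage sum was also highest of the young libraries in young replicate 5, at 201 FPKM against 149 to 173 FPKM in the others. Most of that gap was Aif1, at 169 FPKM against 128 to 147 FPKM, a gene at only 142 FPKM in aged replicate 2 where Cd74 was highest. Without Aif1 the macrophage sum was 32.5 FPKM in young replicate 5 against 21.2 to 26.0 FPKM in the other young libraries. Among those others the order of this sum and of Cd74 differed. The sum of 26.0 FPKM was in young replicate 3, with Cd74 at 0.935 FPKM, and that of 21.2 FPKM in young replicate 1, with Cd74 at 2.26 FPKM. The part of macrophages in the Cd74 values was not tested. The markers Adgre1, Cx3cr1 and Fcer1g were not highest in young replicate 5. The other tested markers of the list, among them Mrc1, Lyz2, C1qa, Cd163 and Csf1r, were highest of the young libraries there. B2m too was highest of the young libraries in young replicate 5.

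**Figure D3:**
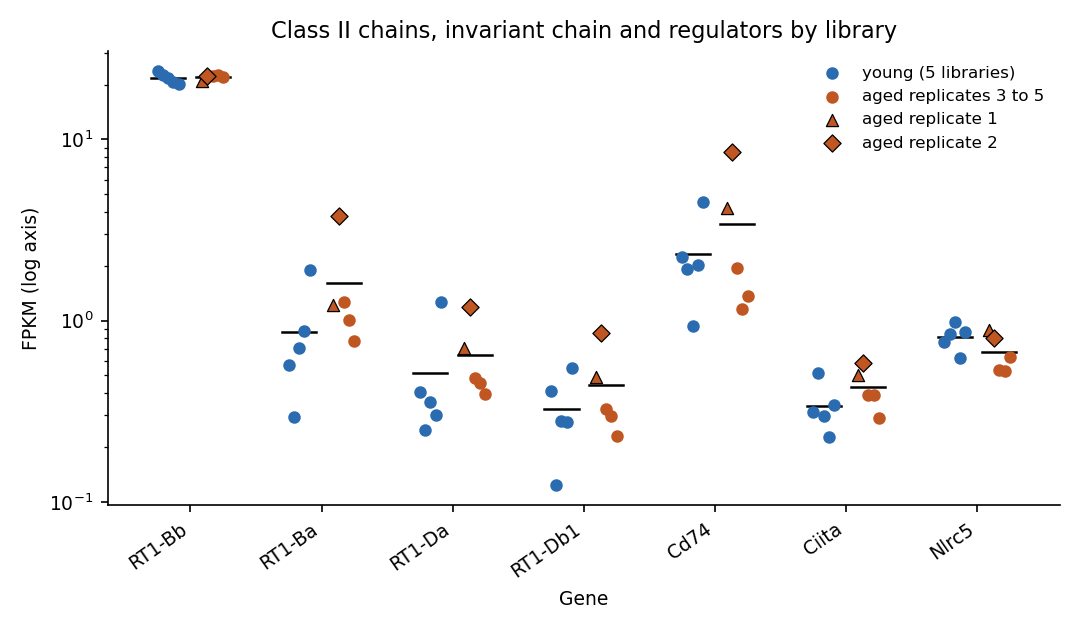
FPKM (log axis) of class II chain genes, Cd74, Ciita and Nlrc5 in 5 young (blue) and 5 aged (orange) libraries, with bars at the group means. RT1-Bb lies at 20.2 to 23.7 FPKM in all libraries, while RT1-Ba, RT1-Da, RT1-Db1 and Cd74 stay below 10 FPKM with aged replicate 2 (diamond) and 1 young library on top.

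The upstream windows of the alpha and beta chain genes of the DQ-like molecule are shown because their levels differ most within a pair. Class II promoters carry a Y box, an inverted CCAAT, searched as GATTGG on either strand and marked by capitals. The windows are chr20:4576807-4577056, plus strand for RT1-Ba and chr20:4604119-4604368, minus strand for RT1-Bb (build GRCr8, RefSeq), a build in which both genes lie on the opposite strand to that in the files.
RT1-Ba: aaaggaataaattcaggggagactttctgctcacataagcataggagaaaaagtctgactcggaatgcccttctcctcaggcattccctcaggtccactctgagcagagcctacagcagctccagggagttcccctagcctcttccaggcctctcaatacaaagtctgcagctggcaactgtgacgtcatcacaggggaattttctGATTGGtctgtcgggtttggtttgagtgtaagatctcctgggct
RT1-Bb: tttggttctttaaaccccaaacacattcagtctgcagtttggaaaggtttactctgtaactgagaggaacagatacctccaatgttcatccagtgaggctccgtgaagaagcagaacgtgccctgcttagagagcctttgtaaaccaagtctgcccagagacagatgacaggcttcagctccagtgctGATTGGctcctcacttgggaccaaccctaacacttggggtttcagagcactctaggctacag
RT1-Bb held the Y box letters at -62 and RT1-Ba at -44, so both windows shared them while the levels of the genes did not match.

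Both activators were below the filter. Ciita measured 0.311, 0.515, 0.298, 0.227 and 0.341 FPKM in the young libraries and 0.498, 0.586, 0.387, 0.389 and 0.290 FPKM in the aged ones, replicates 1 to 5. Nlrc5 measured 0.764, 0.842, 0.978, 0.621 and 0.869 FPKM in the young libraries and 0.882, 0.797, 0.533, 0.529 and 0.632 FPKM in the aged ones, replicates 1 to 5. The groups overlapped for both. Nlrc5 averaged 0.815 ± 0.133 and 0.674 ± 0.159 FPKM (SD, n = 5) and was not tested. Within the aged group it was highest in aged replicates 1 and 2, the libraries that were also highest for B2m and RT1-A2. Over all 10 libraries Nlrc5 was highest in young replicate 3, where B2m was 2.77 FPKM and RT1-A2 at its lowest, 1.52 FPKM. A link between these genes was not tested.

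**Figure D4:**
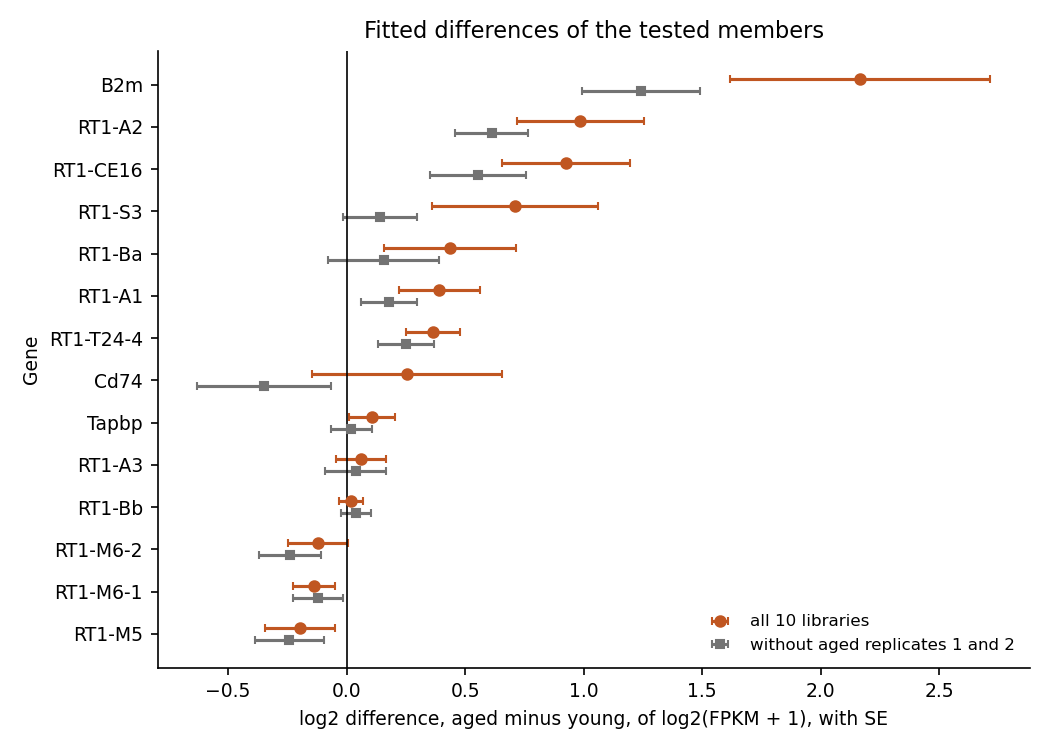
Fitted log2 differences, aged minus young, with SE for the 14 tested members in all 10 libraries (orange circles) and without aged replicates 1 and 2 (grey squares). B2m moves from 2.17 to 1.24 and RT1-A2 from 0.99 to 0.61, Cd74 changes sign, and RT1-Bb stays near 0.

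Other genes of antigen presentation were looked up from a list of 36 names, 21 of whose 37 rows were tested. By limma 0 passed, 12 were higher and 9 lower in aged libraries, with a median log2 difference of 0.09 against -0.02 over all genes tested. Ctss and Psme2 had young means below 1 FPKM and entered the test only through the aged libraries, and the other 19 split into 10 higher and 9 lower. At an unadjusted p under 0.05 there were 5, all higher (Ctss, Psme2, Lgmn, Jak1 and Fcgrt), beside 11.9% of all genes (5.54% higher). Without aged replicates 1 and 2 only Ctss and Psme2 were left, beside 7.49%. The filter fixed the direction of Ctss and Psme2, so these 2 do not count beside those shares. The most abundant were Hspa5, a chaperone of the endoplasmic reticulum, at 267 ± 22.0 and 249 ± 12.5 FPKM (SD, n = 5), and Pdia3, a partner of tapasin in peptide loading, at 255 ± 11.1 and 253 ± 13.6 FPKM. Ctss, the protease that trims the invariant chain, had the largest difference of the list. It measured 0.0598, 0.287, 0.761, 0.316 and 1.83 FPKM in the young libraries and 4.95, 13.8, 1.34, 1.5 and 1.37 FPKM in the aged ones, replicates 1 to 5, with aged replicates 2 and 1 on top and young replicate 5 the highest of its group. Its log2 difference of 1.42 (SE 0.50) was 0.63 (SE 0.28) without aged replicates 1 and 2. Fcgrt, a class I-like Fc receptor that pairs with B2m, ranged from 0.802 to 2.09 FPKM in young and from 1.65 to 13.3 FPKM in aged libraries, a log2 difference of 1.02 (SE 0.41). Aged replicates 1 and 2, at 4.59 and 13.3 FPKM, carried most of it, and without them it was 0.36 (SE 0.17). On the lower side were Nfyc, a subunit of the factor that binds the CCAAT box, at -0.20 (SE 0.10), and the chaperone Canx at -0.15 (SE 0.07).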

How the data were processed

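RNA of round spermatids was sequenced in 10 libraries, 5 young and 5 aged, grouped by the age in the labels. The authors deposited 1 table per library with FPKM values, and alignment and counting tools named in the submitters' processing notes are HISAT2 (2.0.5) and, listed beside it, featureCounts (1.5.0-p3). Genome build, strand setting and handling of fragments that match several genes: not given in the sources used here. FPKM times gene length gave whole fragments for 100% of values in every library, and the depths come from these. The tolerance of 0.001 was relative to the fragment number, so values of many fragments would pass in any case. The libraries' median-of-ratios factors over the 17751 genes above 0 in all libraries were 1, so the deposited values were already on that scale.

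Genes averaging 1 FPKM or more were tested on log2(FPKM + 1) with limma 3.58.1 (R 4.3.3, trended variance), with Benjamini-Hochberg adjustment over all of them. The pseudocount of 1 understates differences of low genes. The procedure was tested on simulated data. Alternatives were another pseudocount, other filters, other scalings, voom on recovered fragments, a replicate block, and leaving out libraries. Values are given by library for members averaging 2 FPKM or more and for the main class II chains, B2m, Cd74, the peptide loading genes and the activators. Of the other antigen presentation genes, the 2 with the largest differences in each direction and the 2 most abundant are named. Members, gene lists and motifs were chosen with earlier results of these data known. Promoters are RefSeq sequences (GRCr8), matched by symbol, and motifs were kept to at most 9 letters after a first scan with longer forms.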

Additional observations from a re-analysis of the deposited data

Results flagged for a closer look

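In 36 groups of 5 libraries (18 members, young and aged apart), 6 held 1 library far from the other 4 of its group. Chance alone flags about 1 in 20 groups if values are independent and normally distributed. FPKM values need not be so and the members share libraries, so no excess over chance is read from this count. Of these, 3 were in aged replicate 2: RT1-A1 at 75.2 FPKM, RT1-A2 at 13.5 FPKM and RT1-Ba at 3.76 FPKM. RT1-A3 was low in aged replicate 3, at 2.52 FPKM. RT1-Da was high in young replicate 5, at 1.27 FPKM. The Tap2 row ENSRNOG00000000455 was at 0.0491 FPKM in aged replicate 4 on 2 fragments and listed at 0 in the other aged libraries, where any value above 0 would have been flagged, so it does not count against the chance rate.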

How the results depend on the processing

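No MHC member passed the threshold under any of 19 alternatives, and the lowest adjusted p of a member was 0.178, for B2m without young replicate 5 (limma). Of 256 member values under alternatives, 60 came from settings that cannot move the fitted difference: the other filters, the replicate block, and median-of-ratios scaling, whose factors were already 1 in the deposited values. Of the other 196, 193 kept their direction. The exceptions were Cd74, at -0.08 without aged replicate 2 and -0.35 without aged replicates 1 and 2, and RT1-Bb, at -0.0065 without young replicate 5, and the cause was not tested. Leaving out each library in turn gave -0.0811 to 0.4574 for Cd74 and -0.0065 to 0.0491 for RT1-Bb. The count of members at an unadjusted p under 0.05 was 5. It was 2 with a mean of at least 5 FPKM, where only 4 members were tested, 3 without aged replicates 1 and 2, where fewer libraries were compared, and 4 to 7 when each library was left out in turn. Over all genes 0 to 1 passed when each library was left out, with 1 without young replicate 1 and 1 without young replicate 2. With the replicate number as a block, 5 members were at an unadjusted p under 0.05 and 0 members passed. After each gene's group mean was subtracted, the deviations of same-numbered libraries correlated at -0.16 to 0.05, and such libraries share only a number. The log2 difference of B2m ranged from 1.24 to 2.58, that of RT1-A2 from 0.61 to 1.23, and that of RT1-S3 from 0.14 to 1.54. The lower ends came from leaving out aged replicates 1 and 2. The upper ends came from voom, which does not use log2(FPKM + 1), so these ranges mix scales. Depth limits the low members: RT1-Ba rested on 7 to 84 fragments a library.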

Other observations

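The class II chaperone genes RT1-DMa and RT1-DMb, whose product exchanges peptides on class II molecules, each appeared in few libraries. RT1-DMb had 27 fragments in aged replicate 5 and was listed at 0 in the other 9 libraries. RT1-DMa had 7 fragments in young replicate 3 and 1 in young replicate 2 and was listed at 0 elsewhere. Both genes were chosen for mention after their values were seen.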
